A study of Mus musculus with 10 samples.

Results

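Krüppel-like factors (KLFs) are zinc finger transcription factors that bind GC-rich DNA and CACCC boxes. The 9 KLF genes described here are Klf2, Klf3, Klf4, Klf6, Klf7, Klf9, Klf10, Klf11 and Klf13. They were found by gene symbol among the 14106 genes of the deposited table, and 9 of 9 were measured in every library. The table holds 10 libraries of brain endothelial cells (BECs), the CD31+CD45− cells of the cortex, from 1 year old female mice. Of these, 5 libraries came from APP/PS1 mice, which carry the APPswe and PS1ΔE9 transgenes, a chimeric mouse and human amyloid precursor protein and a mutant human presenilin 1 that together deposit amyloid β in the brain. The other 5 came from age-matched control mice, labelled WT, and both groups were on a C3H/BL6 background. The cortex was dissociated with warm enzymes and the cells were taken with CD31 microbeads, so all 10 libraries share that handling. The sources used here do not say whether a library is 1 mouse or a pool, so each SD and p value measures the spread between libraries. The question asked of the KLF genes was whether their level in BECs differed between genotypes, with each APP/PS1 library set against the control library of the same replicate number, called a pair below.

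In endothelium, laminar blood flow is sensed at the cell surface and at junctions and is passed on by the kinases MEKK2, MEKK3, MEK5 and ERK5 to MEF2 transcription factors, which switch on KLF2 and KLF4. These factors in turn raise genes that keep vessels open and free of clots, such as Nos3 and Thbd, and restrain adhesion molecules, such as Vcam1. The other members have broader roles. KLF3 is a repressor that recruits CtBP corepressors, KLF6 is an early response gene of injury, KLF7 is known from neurons and fat, KLF9 and KLF13 respond to hormones and KLF9 is an output of the circadian clock and of the glucocorticoid receptor, and KLF10 and KLF11 are early genes of the TGF-β response that bind Sin3 corepressors.

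The 9 genes are spread over 9 chromosomes, and their positions in GRCm38 (the assembly also called mm10) in the GENCODE annotation are Klf2 at chr8:72319033-72321656 (+), Klf3 at chr5:64803388-64832901 (+), Klf4 at chr4:55527143-55532466 (−), Klf6 at chr13:5861482-5870394 (+), Klf7 at chr1:64029447-64122282 (−), Klf9 at chr19:23141226-23168134 (+), Klf10 at chr15:38291463-38300706 (−), Klf11 at chr12:24651274-24662789 (+) and Klf13 at chr7:63886351-63938915 (−). Other measured genes overlap Klf3 (Gm20033 and C230096K16Rik), Klf7 (Gm13748) and Klf13 (Gm27252). Whether the counting used strand is not given in the sources used here, so reads in those overlaps may not be assigned surely.

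The 250 bases before the RefSeq start (GRCm38.p6) are shown for Klf2, Klf4 and Klf6, the members with the highest level in BECs, because these windows show how differently these members are laid out at their starts. Each is written 5′ to 3′ on the strand of its gene, and capitals mark matches on either strand to the MEF2 consensus, to CACCC and to GGGCGG (a GC box). The windows are chr8:72318812-72319061 (+) for Klf2, chr4:55532476-55532725 (−) for Klf4 and chr13:5861239-5861488 (+) for Klf6.
Klf2: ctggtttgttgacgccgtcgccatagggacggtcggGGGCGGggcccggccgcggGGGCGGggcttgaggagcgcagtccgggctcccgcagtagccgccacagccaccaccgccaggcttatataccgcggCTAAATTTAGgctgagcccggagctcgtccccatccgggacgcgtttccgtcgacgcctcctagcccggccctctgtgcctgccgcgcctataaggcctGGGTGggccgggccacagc
Klf4: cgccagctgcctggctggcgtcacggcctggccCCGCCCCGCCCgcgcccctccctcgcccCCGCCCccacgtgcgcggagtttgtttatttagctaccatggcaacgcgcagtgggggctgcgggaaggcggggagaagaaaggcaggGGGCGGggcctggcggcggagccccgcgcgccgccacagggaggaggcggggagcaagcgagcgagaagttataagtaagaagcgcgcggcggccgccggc
Klf6: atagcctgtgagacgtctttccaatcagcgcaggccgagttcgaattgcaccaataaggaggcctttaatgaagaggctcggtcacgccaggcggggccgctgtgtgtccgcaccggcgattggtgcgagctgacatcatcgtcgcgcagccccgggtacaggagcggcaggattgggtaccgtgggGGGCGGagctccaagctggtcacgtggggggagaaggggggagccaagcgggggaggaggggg
The Klf2 window held 1 match to the MEF2 consensus, starting 118 bases before the start, with 1 CACCC and 2 GGGCGG matches. The Klf4 window held 4 GGGCGG matches with none to CACCC or the MEF2 consensus, and the Klf6 window held 1 GGGCGG match and 4 to CCAAT. Promoter windows were found for 8 of the 9 members. Of these, 1 held the MEF2 consensus (Klf2), against 2.89% of 32536 distinct windows of this length. CACCC was in 5 of 8 members' windows against 52.1% of all windows, GGGCGG in 7 of 8 against 33%, CCAAT in 4 of 8 against 33.8% and TGACG, the core of the cyclic AMP response element, in 4 of 8 against 17.9%. The searches took in both strands, and of the capitals shown only a pair of neighbouring GGGCGG matches in the Klf4 window overlap. The GENCODE starts of Klf2 and Klf6 lie just inside these windows. The members' windows were 59.2% (Klf7) to 78.4% (Klf3) G and C, and the windows they were set against were not matched for this. A match is a run of letters and not a measured binding site.

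In the isolated BECs all 9 genes were well expressed, and Klf2, Klf4 and Klf6 stood far above the rest. The part of the isolation in these levels was not tested. Per length, as adjusted counts scaled to library size (CPM) per kb of exon, Klf2 was at 807 ± 68.9 (SD, n = 5) in control and 901 ± 78.1 (SD, n = 5) in APP/PS1 libraries. Klf4 was at 471 ± 27.5 and 559 ± 33.7, and Klf6 at 288 ± 38.5 and 316 ± 42.2 (SD, n = 5 each). Over all 10 libraries the ranges of Klf2, Klf4, Klf6 and Klf9 did not overlap with one another. A second tier followed in which each gene's range overlapped the next one's. In order of the mean over the 10 libraries it held Klf9 at 52.1, Klf13 at 44.3, Klf7 at 38.2, Klf11 at 36.1, Klf3 at 30.8 and Klf10 at 25.1 adjusted CPM per kb. The other KLF genes in the table were lower than these on the same scale, with Klf16 at 14.4, Klf12 at 5.38, Klf8 at 2.46 and Klf15 at 1.12. Of the related Sp genes, Sp3 at 39.3 and Sp1 at 25.8 lay within the range of the second tier, and the rest were at 9.45 (Sp2) or lower. Klf1, Klf5, Klf14 and Klf17 were not among the genes tested. In both groups the members came in the same order of mean level, as the plot of level per length shows.

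**Figure D1:**
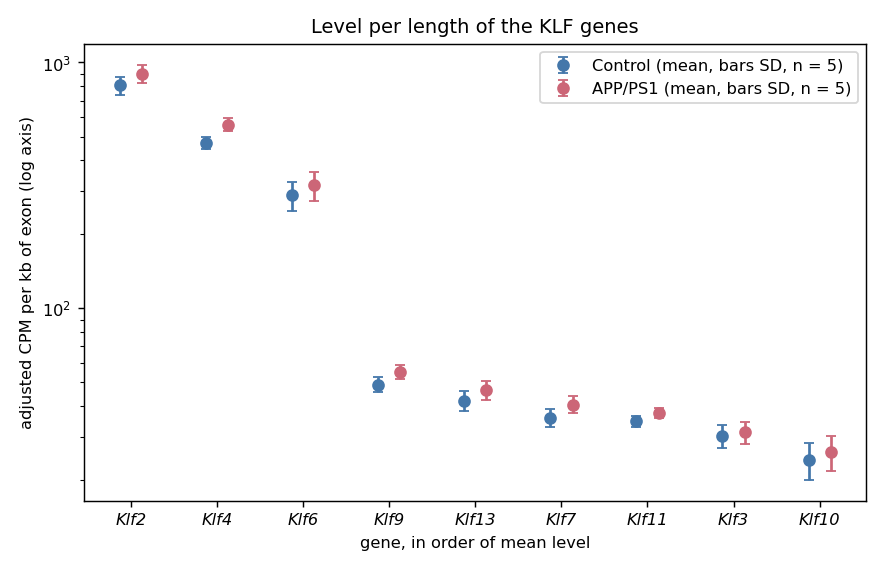
Level of the 9 KLF genes per length, as adjusted CPM per kb of exon on a log axis, in order of mean level. Points are group means and bars the SD of 5 libraries. Klf2, Klf4 and Klf6 lie between 288 and 901 in both groups, and the other 6 genes lie between 24.2 and 55.3.

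Klf4 was the member with the clearest difference between genotypes. Its level in control pairs 1 to 5 was 10.58, 10.57, 10.40, 10.46 and 10.42 log2 CPM, and in the APP/PS1 libraries 10.63, 10.64, 10.82, 10.77 and 10.80. Every APP/PS1 library lay above every control library, but in pairs 1 and 2 the libraries were only 0.06 and 0.07 apart, against 0.31 to 0.42 in pairs 3, 4 and 5. Klf4 was on average 0.25 higher on the log2 scale (SE 0.0746, 95% interval 0.06 to 0.43), or 1.19-fold (1.05 to 1.35). The difference had an unadjusted p of 0.0168 and an adjusted p of 0.566 (limma with the replicate number as a block, Benjamini-Hochberg over all genes), so it did not pass the threshold of 0.05. The exact two-sided sign-flip test gave p = 0.0625, the smallest that 5 pairs allow. Without the block, limma gave Klf4 an adjusted p of 0.0338, a call that the fit with the block lacks, and that fit called 4.59% of all genes.

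None of the 9 members passed at an adjusted p of 0.05, where 0% of the 14106 genes passed and the smallest adjusted p of any gene was 0.195. At an unadjusted p under 0.05, 1 member was higher (Klf4) and none lower, where 2.13% of all genes were higher and 8.03% differed in either direction. Klf4 was also the 1 member higher in all 5 pairs, against 2.99% of all genes, and the 1 member whose groups did not overlap with APP/PS1 above control, against 2.91%. Each of these counts rests on Klf4 alone. Of the 2048 genes between the lowest and the highest member in mean level, 62 were higher at that p and 113 were higher in all 5 pairs. The intervals of the other 8 members spanned 0, as the plot of fold changes shows, and reached from 0.36 lower to 0.57 higher on the log2 scale.

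**Figure D2:**
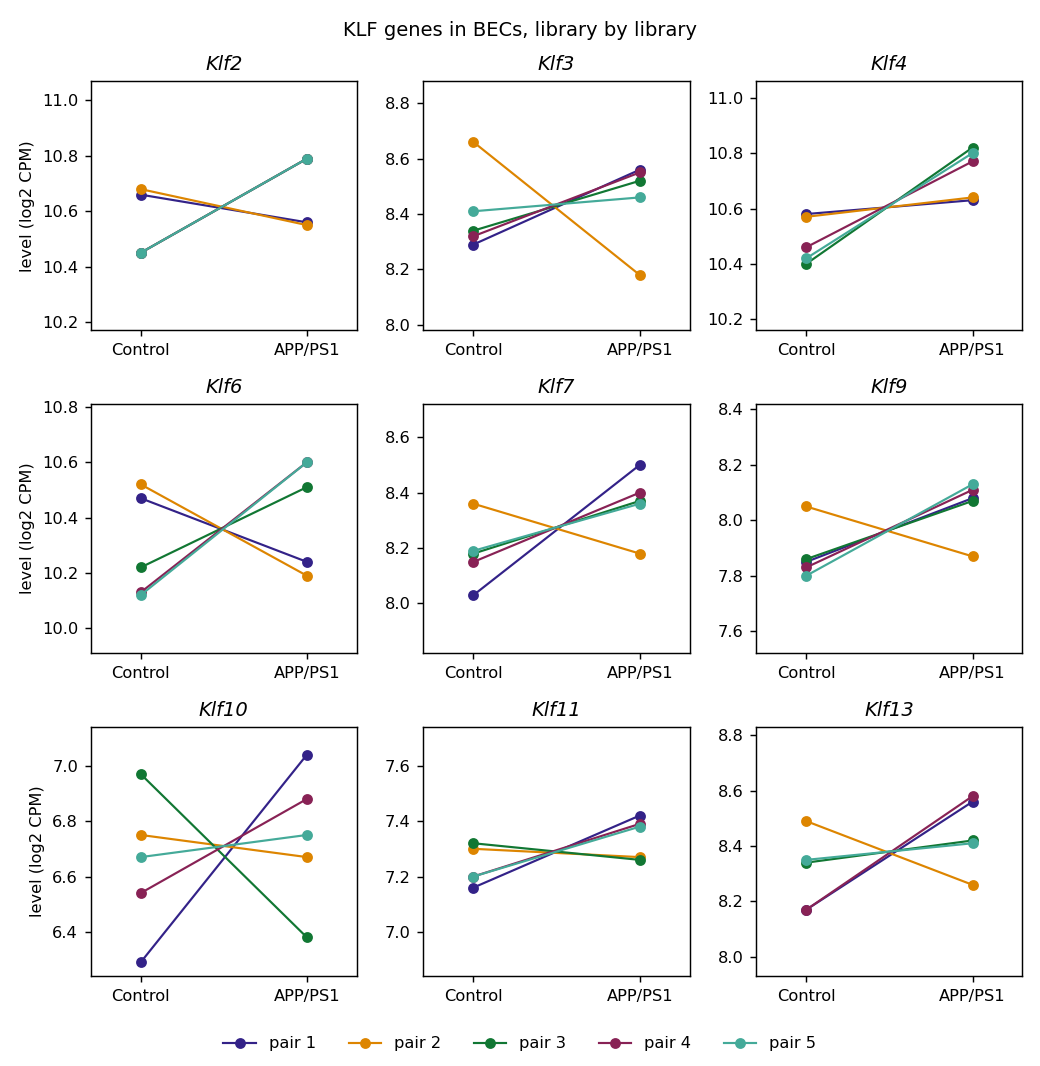
Level of each KLF gene in log2 CPM in the control and APP/PS1 library of every pair. Lines join the 2 libraries of a pair, and Klf4 is the 1 gene in which 5 of 5 lines go up. Pair 2 goes down in the other 8 genes, as in 49.7% of all genes.

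Klf2, the gene most closely tied to laminar flow, was split among the pairs. It was at 10.66, 10.68, 10.45, 10.45 and 10.45 log2 CPM in control libraries and at 10.56, 10.55, 10.79, 10.79 and 10.79 in APP/PS1 libraries. APP/PS1 was lower in pairs 1 and 2, by 0.10 and 0.13, and higher by 0.34 to 0.35 in pairs 3, 4 and 5. The mean difference was 0.16 (SE 0.1, 95% interval −0.09 to 0.41, adjusted p = 0.796 by limma with the block), or 1.12-fold (0.94 to 1.32).

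Klf6 divided the pairs in the same way. Control libraries were at 10.47, 10.52, 10.22, 10.13 and 10.12 log2 CPM and APP/PS1 libraries at 10.24, 10.19, 10.51, 10.60 and 10.60. The difference was −0.23 and −0.33 in pairs 1 and 2 and 0.29, 0.47 and 0.47 in pairs 3, 4 and 5, with a mean of 0.13 (95% interval −0.23 to 0.50, adjusted p = 0.876 by limma with the block). In Klf2, Klf4 and Klf6 alike, pairs 1 and 2 had the lowest paired differences. Pairs 1, 2 and 3 are each a batch of their own in the labels and pairs 4 and 5 share a batch.

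Klf9, Klf7, Klf13 and Klf3 followed another course, in which pair 2 alone was lower. Klf9 was at 7.85, 8.05, 7.86, 7.83 and 7.80 log2 CPM in control libraries and at 8.08, 7.87, 8.07, 8.11 and 8.13 in APP/PS1. Outside pair 2 the 4 differences lay within 0.12 of each other, and the groups were apart. The mean difference over 5 pairs was 0.17 (SE 0.084, 95% interval −0.03 to 0.38, adjusted p = 0.71 by limma with the block). Klf7 was at 8.03, 8.36, 8.18, 8.15 and 8.19 in control libraries and at 8.50, 8.18, 8.37, 8.40 and 8.36 in APP/PS1. Its mean difference was 0.18 (95% interval −0.06 to 0.42, adjusted p = 0.734 by limma with the block), with pair 1 the widest at 0.47.

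Klf13 was at 8.17, 8.49, 8.34, 8.17 and 8.35 log2 CPM in control libraries and at 8.56, 8.26, 8.42, 8.58 and 8.41 in APP/PS1, a mean difference of 0.14 (95% interval −0.12 to 0.40, adjusted p = 0.824 by limma with the block). Its pairs 1 and 4 differed by 0.39 and 0.41, and its pairs 3 and 5 by 0.08 and 0.06. Klf3, the CtBP-dependent repressor, was at 8.29, 8.66, 8.34, 8.32 and 8.41 in control libraries and at 8.56, 8.18, 8.52, 8.55 and 8.46 in APP/PS1. Pair 2 was 0.48 lower while the others were 0.05 to 0.27 higher, and the mean was 0.05 (95% interval −0.25 to 0.35, adjusted p = 0.952 by limma with the block).

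The 2 TGF-β-inducible members were unlike each other in spread. Klf11 was at 7.16, 7.30, 7.32, 7.20 and 7.20 log2 CPM in control libraries and at 7.42, 7.27, 7.26, 7.39 and 7.38 in APP/PS1. It had the narrowest range of paired differences of the 9 genes, 0.32, with a mean of 0.11 (95% interval −0.05 to 0.27, adjusted p = 0.784 by limma with the block). Klf10 was at 6.29, 6.75, 6.97, 6.54 and 6.67 in control libraries and at 7.04, 6.67, 6.38, 6.88 and 6.75 in APP/PS1. It had the widest range, 1.33, from 0.75 higher in pair 1 to 0.59 lower in pair 3, and its mean of 0.10 had a 95% interval from −0.36 to 0.57 (adjusted p = 0.921 by limma with the block).

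**Figure D3:**
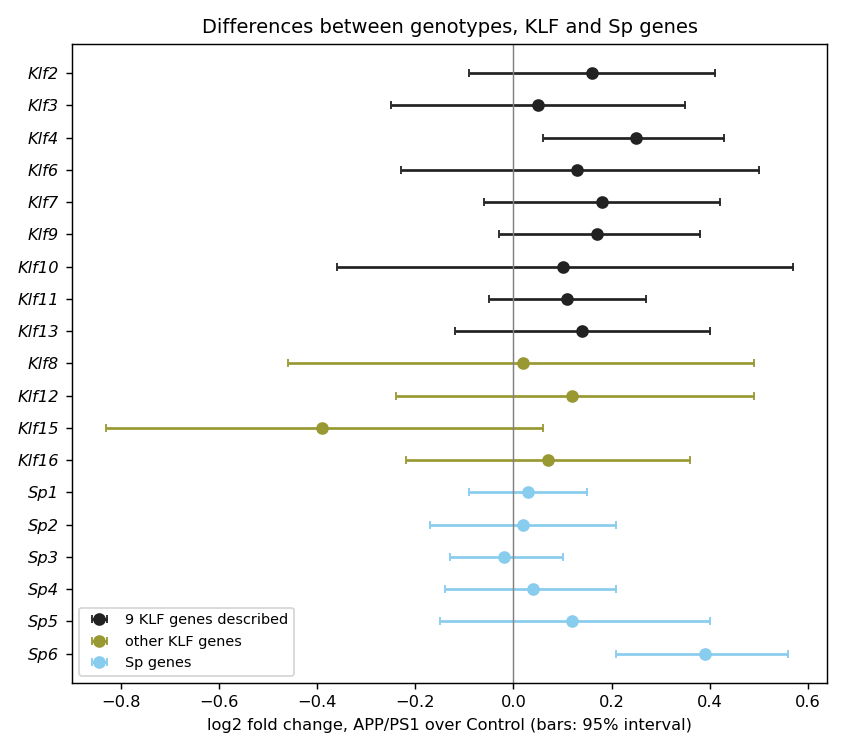
Mean log2 fold change of APP/PS1 over control with its 95% interval from limma with the replicate block, for the 9 KLF genes, the 4 other KLF genes and the 6 Sp genes of the table. All 9 points lie above 0, and of their intervals that of Klf4 (0.06 to 0.43) does not reach 0.

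All 9 members had a mean difference above 0, with a median of 0.144 on the log2 scale, where 48.2% of all genes were above 0 and the median of all genes was −0.00377. The members are abundant transcripts, and among the 2048 genes between the lowest and the highest member in mean level 73.9% were above 0, with a median of 0.0393. At least 4 of 5 pairs were higher in 5 members, Klf3, Klf4, Klf7, Klf9 and Klf13, against 20.7% of all genes. Pair 2 was the exception in most members, since 8 of 9 were lower there, against 49.7% of all genes. In pairs 4 and 5 all 9 were higher, against 48.9% and 47.8% of all genes. The genes in the members' range of level had medians of 0.06, −0.07, 0.06, 0.06 and 0.06 in pairs 1 to 5. A lower pair 2 was thus not particular to the members. Each pair was left out in turn, and the counts turned on which one it was. Without pair 2, 5 members (Klf3, Klf4, Klf7, Klf9 and Klf13) were higher in the remaining 4 pairs, as were 11.8% of all genes, and the same 5 had groups that did not overlap (11.7% of all genes) and an unadjusted p under 0.05 (5.86%). That these 5 remain follows from pair 2 being their 1 exception, or from no exception in Klf4, and is no support for a difference. Without pair 1, Klf4 was the 1 member with an unadjusted p under 0.05, and without pair 3, 4 or 5 no member had one. No member passed an adjusted p of 0.05 in any of these fits of limma.

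The distances among the members did not part them into separate sets. Over the 5 paired differences, the root mean square distance was smallest between Klf7 and Klf13 (0.108 log2 units) and between Klf2 and Klf4 (0.123), out of 36 pairs of members, and largest between Klf6 and Klf10 (0.623). Klf9 lay between, at 0.126 from Klf7, 0.164 from Klf2 and 0.168 from Klf4, which was itself 0.243 from Klf6. Of 10872 other genes whose mean reached 2 log2 CPM, the one nearest to Klf2 was Ccn1, which encodes a matrix protein induced early by serum and stretch, at a distance of 0.053 against a median distance of 0.311. Ccn1 differed by −0.09, −0.20, 0.33, 0.44 and 0.30 in pairs 1 to 5. It is also among the genes counted below as known to be restrained by KLF2 or KLF4. Next came the pseudogene Gm6485 and Gtf2b, which encodes the general transcription factor TFIIB. Nearest to Klf4 was Egr3, an immediate-early transcription factor, at 0.0742 against a median of 0.328, with differences of 0.13, 0.06, 0.29, 0.35 and 0.31. The antisense transcript Gm44732 and Enc1 followed. These are descriptions over 5 pairs and say nothing of shared control.

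**Figure D4:**
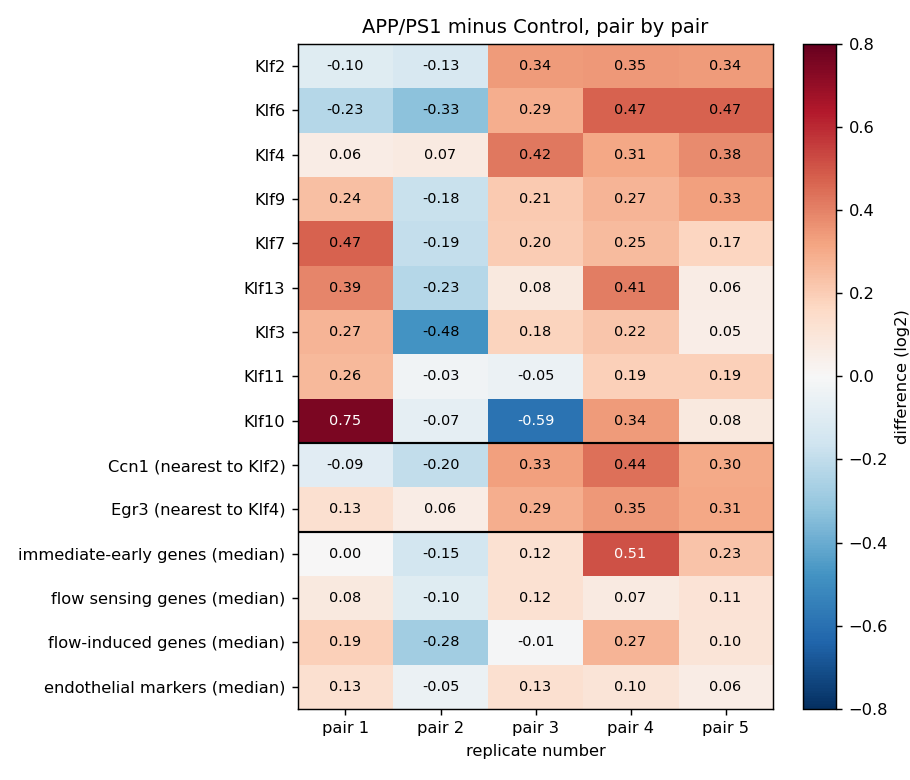
Difference of APP/PS1 minus control in log2 units for each pair, for the 9 KLF genes, for the genes nearest to Klf2 and Klf4 and for the medians of 4 gene lists. Klf2 and Klf6 are below 0 in pairs 1 and 2, and pair 2 is below 0 in 8 of 9 members and in 49.7% of all genes.

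Immediate-early genes, which cells raise within minutes of stimulation or of being taken from tissue, were abundant in both groups and mostly higher in APP/PS1. Of 26 genes listed, 25 were tested and 24 were higher in APP/PS1, where 48.2% of all genes and 73.9% of genes in the members' range of level were. Their median was 0.145 on the log2 scale, beside the members' 0.144, and fell to 0.04 without pair 4. At an unadjusted p under 0.05, 3 were higher (2.13% of all genes) and none lower, Junb by 0.27, Egr3 by 0.23 and Nr4a2 by 0.30, with adjusted p of 0.569, 0.537 and 0.537 (limma with the block). Those 3 were higher in 5 of 5 pairs. Fos was at 12.01 log2 CPM in control libraries and 12.16 in APP/PS1, Jun at 11.33 and 11.38, Egr1 at 10.89 and 10.99, Dusp1 at 10.83 and 10.94 and Atf3 at 10.45 and 10.53. The list's median was 0.00, −0.15, 0.12, 0.51 and 0.23 in pairs 1 to 5, and that of Klf2, Klf4 and Klf6 was −0.10, −0.13, 0.34, 0.35 and 0.38. The part of the immediate-early response in the members' values was not tested.

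The flow sensing genes upstream of Klf2 and Klf4 differed by −0.05 to 0.37 on the log2 scale. All 25 listed were tested, 20 were higher and 5 lower with a median of 0.0509, and none had an unadjusted p under 0.05. Their share higher was 80%, against 48.2% of all genes and 73.9% of genes in the members' range of level. Piezo1, a mechanically gated channel, was at 8.71 log2 CPM in both groups. Of the kinases, Map2k5 (MEK5) was at 4.89 and 4.91 in control and APP/PS1 and Mapk7 (ERK5) at 5.21 and 5.19. Mef2a, whose product binds the consensus found before Klf2, was at 7.99 and 8.11 with a difference of 0.13 (adjusted p = 0.685 by limma with the block). Mef2c and Mef2d differed by 0.09 and 0.06, and Heg1 and Krit1, of the junctional complex that holds Klf2 and Klf4 down, by 0.07 and 0.04.

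Flow-induced genes, among them known targets of Klf2 and Klf4 such as Nos3 and Thbd, were divided in direction. Of 30 flow-induced genes 26 were tested, with 17 higher and 9 lower and a median of 0.0482. The share higher was 65.4%, between the 48.2% of all genes and the 73.9% of genes in the members' range of level. Nos3, the endothelial nitric oxide synthase, was at 9.76 and 9.81 log2 CPM and Thbd, the thrombin receptor thrombomodulin, at 10.25 and 10.27. Ass1 and Plpp3, 2 further targets, differed by −0.11 and −0.05. At an unadjusted p under 0.05, Slc9a3r2, which encodes a scaffold protein, was higher by 0.18 in 5 of 5 pairs, and Ptgds, a prostaglandin D synthase also made by cells of the meninges, was lower by 1.90 in 5 of 5 pairs from a low level of 1.92 in control libraries. Their adjusted p values were 0.577 and 0.575 (limma with the block). Of all genes, 2.13% were higher and 5.91% lower at an unadjusted p under 0.05.

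Of 20 genes known to be restrained by KLF2 or KLF4, 18 were tested, with 12 higher and 6 lower and a median of 0.0522. The share higher was 66.7%, again between all genes (48.2%) and genes in the members' range of level (73.9%). Vcam1 was at 9.24 log2 CPM in control libraries and 9.01 in APP/PS1, lower in 4 of 5 pairs, with a difference of −0.23 (adjusted p = 0.795 by limma with the block). Icam1 differed by −0.06, Edn1 (endothelin 1) by 0.20 and Angpt2 by 0.11. At an unadjusted p under 0.05, the chemokine gene Cxcl12 was higher by 0.26 in 5 of 5 pairs and Il1r1, the receptor of interleukin 1, was lower by 0.33 in 4 of 5 pairs, each with an adjusted p of 0.569 (limma with the block). The shares of all genes at that unadjusted p were 2.13% higher and 5.91% lower.

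The pathways behind the other members were likewise without a call. Beside the counts that follow, 48.2% of all genes and 73.9% of genes in the members' range of level were higher. Of 12 corepressor genes tested 7 were higher, and Ctbp2, partner of KLF3, was higher by 0.15 in 5 of 5 pairs with an unadjusted p of 0.022 and an adjusted p of 0.569 (limma with the block). Of 15 glucocorticoid response genes 10 were lower, with a median of −0.0895 that ran from 0.05 without pair 2 to −0.30 without pair 4. Fkbp5 differed by −0.39, Per1 by 0.16, Tsc22d3 by 0.14 and the receptor Nr3c1 by 0.01, and Plin4, a lipid droplet gene of low level, was lower by 0.35 with an unadjusted p of 0.00755. Of 16 clock genes 14 were higher, with a median of 0.0963 and none at an unadjusted p under 0.05, Dbp at 0.11 and Nr1d1 at 0.12. Of 12 early TGF-β genes 11 were higher, with a median of 0.0863, and the inhibitor Smad7 differed by 0.22 with 0.85 in pair 1, the pair in which Klf10 was also widest. Junb, which is also an immediate-early gene, was the 1 gene of the TGF-β list at an unadjusted p under 0.05 (limma with the block).

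In the wider family, 3 of the 4 other KLF genes and 5 of the 6 Sp genes were above 0, against 48.2% of all genes, and their difference from the 9 members was not tested. The other KLF genes had a median of 0.0419 and none at an unadjusted p under 0.05. Klf15, a glucocorticoid-responsive metabolic KLF, differed by −1.19, −0.08, −0.17, −0.44 and −0.05 in pairs 1 to 5, a mean of −0.39 from 1.83 log2 CPM in control libraries (adjusted p = 0.697 by limma with the block). Without pair 1 the mean was −0.18. Its groups did not overlap, as in 4.96% of all genes with APP/PS1 below control. Klf12 and Klf16 differed by 0.12 and 0.07. The related Sp factors had a median of 0.0333 over 6 genes, with Sp1 at 0.03 and Sp3 at −0.02. Sp6, at 0.84 in control libraries, was higher by 0.39 in 5 of 5 pairs with an unadjusted p of 0.00187 and an adjusted p of 0.373 (limma with the block).

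**Figure D5:**
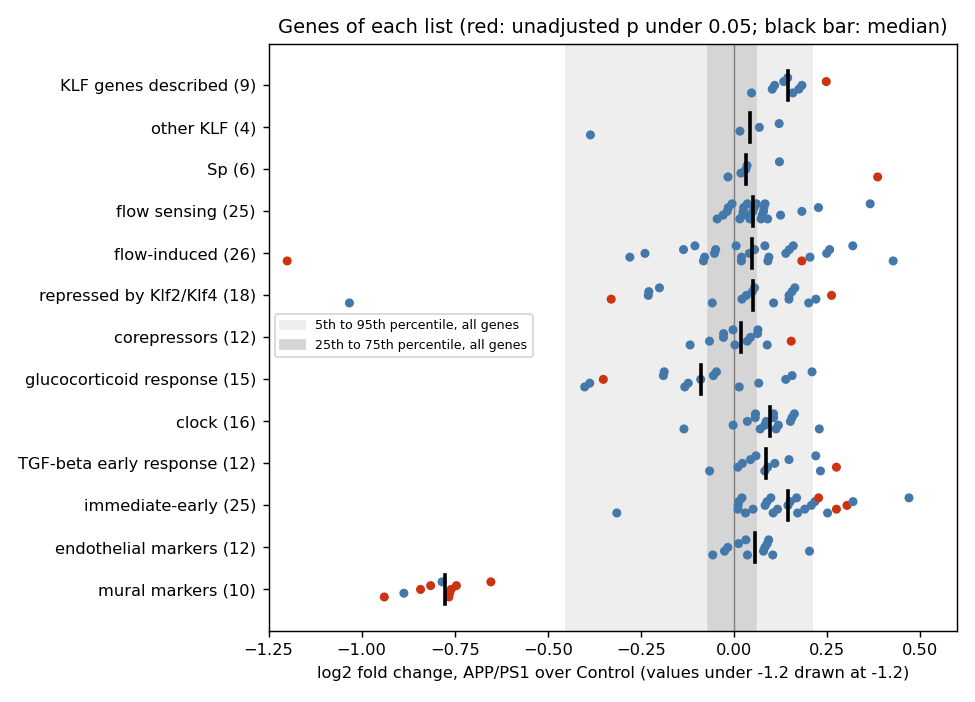
Mean log2 fold change of APP/PS1 over control for every gene of 13 lists, with the number tested in brackets, the median as a black bar and genes with an unadjusted p under 0.05 in red. Grey bands give the percentiles of all 14106 genes, and 1 flow-induced gene below −1.2 is drawn at the edge. The KLF genes and the immediate-early genes have medians of 0.144 and 0.145, and the mural markers of −0.775.

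The libraries held the markers of the labelled cell type and traces of others, and no marker passed an adjusted p of 0.05 by limma with the block. All 12 endothelial markers were measured, with a summed level of 22800 to 24000 CPM in control and 23800 to 25100 in APP/PS1 libraries, a median difference of 0.0575 and none at an unadjusted p under 0.05. The 10 mural markers summed to 580 to 979 in control and 296 to 578 CPM in APP/PS1 libraries, 10 of 10 were lower and 8 had an unadjusted p under 0.05, where 5.91% of all genes were lower at that p. Of 8 oligodendrocyte markers tested 8 were lower and 4 had an unadjusted p under 0.05, with sums of 50.2 to 288 in control and 37.9 to 148 CPM in APP/PS1 libraries. Their sum was lower in APP/PS1 in pairs 1, 3, 4 and 5 and higher in pair 2, with log2 ratios of −2.92, 1.56, −2.07, −2.03 and −2.28, while the members' median was 0.26, −0.18, 0.20, 0.31 and 0.19. Among the oligodendrocyte markers, Sox10 was lower by 1.12 in 5 of 5 pairs, from a low level of −0.55 log2 CPM in control libraries. It had the smallest p of all genes in the table (unadjusted 1.38e-05, adjusted 0.195, limma with the block). Astrocyte markers were lower in 6 of 7, with sums of 169 to 207 in control and 170 to 211 CPM in APP/PS1 libraries. Neuron markers were lower in 3 of 4, with sums of 93.7 to 117 and 97.8 to 122, and microglia and leukocyte markers in 5 of 7, with 56 to 66 and 52.1 to 61.5. Erythroid markers were lower in 4 of 4, with sums of 29.3 to 241 and 14.2 to 153 that were lower in pairs 1, 2 and 3 and higher in pairs 4 and 5. Fibroblast markers were lower in 3 of 3, with sums of 11.7 to 18.2 and 7 to 12.2, and choroid plexus markers in 2 of 3, with 52.4 to 85.5 and 38.7 to 58.2. At an unadjusted p under 0.05, 2 astrocyte, 2 neuron, 1 fibroblast and 2 choroid plexus markers were lower and none higher. No microglia and leukocyte or erythroid marker had such a p (limma with the block). Mag was at 0 adjusted counts in some library, and no marker was at 0 in all of them. The part of these cells in the members' values was not tested, and in bulk RNA fewer cells of a type and less RNA per cell cannot be told apart. Total adjusted counts ran from 22371766 to 126686149, with both libraries of pair 1 the lowest, and the lowest adjusted count of any member in any library was 1817.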

How the data were processed

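By the study's methods and the submitters' processing notes, the authors aligned reads to mm10 with STAR, counted them with HTSeq-count, filtered and normalised with edgeR and corrected batches with ComBat. Versions are not given in the sources used here. The deposited unit is log2 CPM. The values converted back to whole adjusted counts with a prior count of 3 (100% within 0.01), and these are no reads, so counting errors were not derived. ComBat applied to log CPM, as the methods describe, would not in general leave whole counts. The members' pair means were nearly equal over 5 replicate numbers (largest range 0.0504 log2), where the labels give 4 batches. The correction actually used is therefore not known here. Per-library files equalled the table.

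The members and lists were chosen with earlier results of these data known. limma 3.58.1 in R 4.3.3 (lmFit, eBayes) was fitted to the 14106 genes with genotype and replicate number as terms. Adjusted p values are Benjamini-Hochberg values over all genes, with a threshold of 0.05, and intervals are 95%. The replicate numbers follow the batches of the labels, except that pairs 4 and 5 share one. In the corrected values the members' pair means were nearly equal, and equality was not checked for each other gene. Deviations of same-numbered libraries were close to mirror images (correlations of −0.94 to −0.97 across 10873 genes). For the members this leaves 5 independent differences and makes that check of pairing void. Levels per length used GENCODE exons (GRCm38). Promoters came from RefSeq and were searched for 5 motifs on both strands. Genes named were the members, fixed list genes, list genes other than cell type markers with an unadjusted p under 0.05, and the 3 genes nearest to Klf2 and to Klf4. Cell type markers were given as counts and sums, with only Sox10 and Mag named. Alternatives were no replicate block, 4 batches, an eBayes trend, a filter at 1 log2 CPM, a prior count of 0.5, median centring, a threshold of 0.10 and each replicate left out. Reads before correction and the authors' own fold changes and p values were not used.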

Additional observations from a re-analysis of the deposited data

Results flagged for a closer look

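In the 18 groups of 5 values searched (9 members in 2 groups), 3 held a library whose gap to the next exceeded Dixon's 95% critical value of 0.71 of the range, and chance gives about 5% of groups. All 3 were of replicate 2. Klf3 in APP/PS1 replicate 2 was 8.18 log2 CPM against 8.46 to 8.56 in the other APP/PS1 libraries. Klf9 in control replicate 2 was 8.05 against 7.80 to 7.86, and Klf9 in APP/PS1 replicate 2 was 7.87 against 8.07 to 8.13. The 2 groups of a member, those of Klf9 included, are not independent, since in the corrected values the libraries of a pair are close to mirror images. Setting 3 of 18 groups against 5% therefore does not measure how unusual replicate 2 was.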

How the results depend on the processing

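No alternative other than leaving out the replicate block called a member at an adjusted p of 0.05. Without the replicate block, limma called 648 genes, 1 of them a member (Klf4), and 4 members had an unadjusted p under 0.05 (Klf4, Klf7, Klf9 and Klf11). That fit has 8 residual degrees of freedom in place of 4, although the members' pair means were nearly equal in the corrected values. With the 4 batches of the labels it called 1 gene and no member (Klf4 adjusted p = 0.275). Leaving out each replicate in turn gave 0 to 5 called genes and 0 called members. It gave 1 to 5 members of the same direction in the remaining pairs, 1 to 5 whose groups did not overlap and 0 to 5 with an unadjusted p under 0.05. The upper values came without replicate 2, and without replicates 3, 4 or 5 no member, Klf4 included, had an unadjusted p under 0.05. Klf4 then had adjusted p values of 0.935, 0.793 and 0.781 by limma, and over all alternatives they ran from 0.0338 to 0.935. Without replicate 1, with the lowest totals, Klf3 was −0.01 and Klf10 −0.06, the reverse of their sign with all pairs, and leaving out the others gave up to 0.18 for Klf3 (without replicate 2) and 0.27 for Klf10 (without replicate 3). Of the 10 list medians, those of the glucocorticoid genes (−0.30 to 0.05), the genes restrained by Klf2 or Klf4 (−0.03 to 0.13) and the other KLF genes (−0.08 to 0.14) took both signs when a replicate was left out, and that of the immediate-early genes ran from 0.04 to 0.21. Of 99 values of single members under the 11 alternatives, 96 kept their direction and their side of the threshold. The adjusted counts, with 5 independent differences, limit what can be seen: the intervals of 8 members reached from below 0 to at least 0.27 above it on the log2 scale.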
